A study of Mus musculus with 5 samples.

Results

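The 10 genes of tissue residency and TGF-β signaling were followed across the cell types of 4T1 tumors, in T cells, in natural killer (NK) cells and in the stromal, myeloid and cancer cells that make the TGF-β ligands. They were the integrin chains Itgae and Itga1, the adhesion molecule Cdh1, the retention receptor Cd69, the surface antigens Ly6c1 and Ly6c2, the ligands Tgfb1 and Tgfb3, and the receptors Tgfbr1 and Tgfbr2. All 10 were found by symbol among the 32285 features of the T cell libraries, with 1 feature each. 4T1 is a mouse mammary carcinoma line, grown here in a mammary fat pad of female BALB/c mice, 12 weeks old by the labels. In the mice of both T cell libraries, doxorubicin (DOX, 5 mg/kg) was injected into a vein 3 times with 3 days between injections. One library held T cells enriched from DOX sensitive tumors and the other from DOX resistant tumors. Other cells were depleted with magnetic beads, including beads for CD90.1, which the injected cancer cells carry. Tumors from 3 mice were pooled in each library, so the spread between mice could not be measured. With 1 library for each group no p-value was possible. Every interval below covers counting error only, at 95%.

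Tissue-resident memory CD8 T cells stay in a tissue instead of recirculating. Itgae encodes the αE chain of CD103, which pairs with the β7 chain and binds E-cadherin, the product of Cdh1, on epithelial cells. Itga1 encodes the α chain of the collagen receptor CD49a. CD69 holds cells in tissue by removing the egress receptor S1PR1 from the surface. TGF-β is secreted in a latent form, and once activated it binds TGFBR2, which recruits and phosphorylates TGFBR1. In T cells this pathway raises Itgae, and in fibroblasts it drives matrix production. Ly6C marks memory and effector CD8 T cells in blood and lymphoid organs, monocytes, and some endothelial and stromal cells.

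The sensitive library held 3949 barcodes and 31690845 unique molecular identifiers (UMIs, each counting 1 captured RNA molecule), and the resistant library 6116 barcodes and 35908799 UMIs. After filtering, 3448 and 3091 cells remained, with median mitochondrial shares of 2.39% and 4.95% of UMIs. Both libraries listed 31 of the same barcode sequences, of which 18 belonged to kept cells. Lymphocytes were gated on lineage transcripts within T and NK cell-like clusters. This gave 1322 sensitive and 1575 resistant CD8+ cells, 198 and 52 CD4+ cells, 78 and 44 NK cells, and 81 and 19 γδ T cells. The fibroblast-like (832 and 594 cells), macrophage or monocyte-like (223 and 195) and cancer-like cells (113 and 145) were those left after the depletion, and their makeup need not be that of the tumor. Levels are UMIs of a gene scaled to the sum of all UMIs of a class in a library (counts per 1e6, CPM), and each ratio is sensitive over resistant. The 8 fibroblast markers summed to 35264 and 32827 CPM in fibroblast-like cells and to 52.5 and 132.3 CPM in cancer-like cells. The 9 macrophage markers summed to 36970 and 33127 CPM in macrophage-like and to 238.4 and 193.6 CPM in fibroblast-like cells, and the 8 epithelial markers to 7672 and 7266 CPM in cancer-like and to 43.1 and 9.83 CPM in fibroblast-like cells.

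Positions are given on GRCm38 (mm10). Itgae spans chr11:73090583-73147446 on the plus strand with 31 exons, and Itga1 chr13:114953096-115101964 on the minus strand with 29. Cdh1 lies at chr8:106603351-106670246, plus strand, with 16 exons. Cd69 lies at chr6:129267325-129275436, minus strand, with 5. Tgfb1 is at chr7:25687002-25705077 on the plus strand and Tgfb3 at chr12:86056745-86079041 on the minus strand, each with 7 exons. Tgfbr1 is at chr4:47353222-47414931, plus strand, with 9 exons, and Tgfbr2 at chr9:116084293-116175360, minus strand, with 7. Haspin lies antisense inside Itgae, and 3 genes lie antisense to Tgfb3. Pelo and Gm49395 overlap Itga1 on the same strand and Gm10734 on the other. Whether reads were shared among them was not tested.

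Ly6c1 (chr15:75044018-75048830) and Ly6c2 (chr15:75108158-75111970) are neighbors on the minus strand, 59327 bases apart and with 4 exons each. Their coding sequences are shown because the 2 genes gave different results and reads could be shared between them. Each has 393 bases without the stop codon, of which 9 differ. The first 264 bases are printed, from the start codon, with the 7 differing bases of this stretch in capitals.
Ly6c1: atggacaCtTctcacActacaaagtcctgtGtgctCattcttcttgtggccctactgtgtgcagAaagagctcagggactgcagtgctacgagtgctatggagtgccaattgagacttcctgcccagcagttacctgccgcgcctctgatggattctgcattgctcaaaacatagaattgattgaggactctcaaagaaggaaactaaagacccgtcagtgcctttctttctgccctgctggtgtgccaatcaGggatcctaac
Ly6c2: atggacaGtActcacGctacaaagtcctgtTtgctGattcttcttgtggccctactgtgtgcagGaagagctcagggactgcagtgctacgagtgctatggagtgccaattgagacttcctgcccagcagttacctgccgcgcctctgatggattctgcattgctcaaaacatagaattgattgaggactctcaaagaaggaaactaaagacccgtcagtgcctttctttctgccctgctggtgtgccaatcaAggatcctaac
The coding sequences were 97.7% identical, with a longest identical run of 188 bases. The 3′ ends from the stop codon on, which this 3′ assay reads most, were 392 and 385 bases long and shared a longest run of 124. Of 696 windows of 90 bases from the start codon to the end of the Ly6c1 transcript, 134 occurred unchanged in Ly6c2. Reads inside such windows cannot be assigned to either gene. The Ly6c genes are therefore given one by one and also summed.

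**Figure D1:**
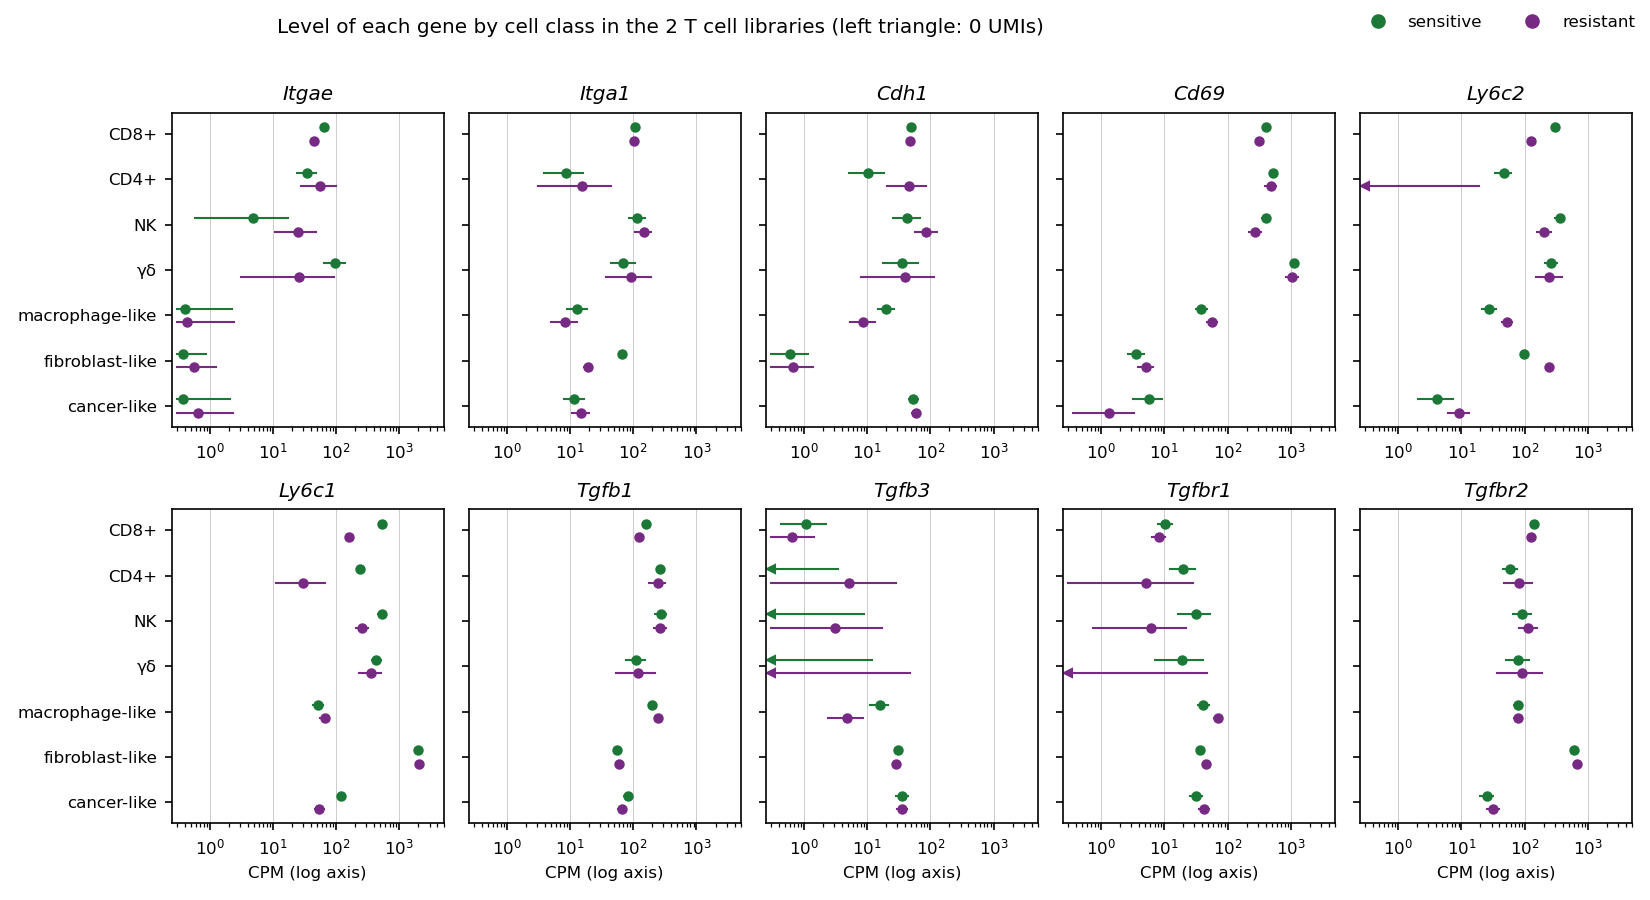
Level of each of the 10 genes (CPM, log axis) in 7 cell classes of the sensitive (green) and resistant (purple) T cell libraries. Points are the summed level of a class in 1 library, lines are exact Poisson 95% intervals, drawn down to the edge of the axis where they reach lower, and a left-pointing triangle marks 0 UMIs. Itgae sits near the lower edge in the 3 non-lymphoid classes, Ly6c1 and Tgfbr2 are highest in fibroblast-like cells, and Tgfb3 is highest in cancer-like and fibroblast-like cells.

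Itgae was found in T cells, dendritic cell-like cells and mast or basophil-like cells. Sensitive CD8+ cells held 426 Itgae UMIs (65.4 CPM) and resistant ones 407 (44.2 CPM), which gives a ratio of 1.48 (1.29 to 1.70). That ratio lay just inside the 1.5-fold limit and was not counted as past it. The Foxp3+ part of the CD4+ cells, which carries the transcription factor of regulatory T cells, stood higher at 173.5 and 428.4 CPM, from only 20 and 6 cells. Foxp3- CD4+ cells held 19 and 1 UMIs (19.9 and 5.75 CPM). γδ T cells were at 95.5 and 26.0 CPM, from 30 and 2 UMIs, and the interval of their ratio (3.68, 0.933 to 31.7) included 1. NK cells held 2 and 8 UMIs.

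Outside the lymphocytes, dendritic cell-like cells carried 138 and 272 Itgae UMIs (302.1 and 422.3 CPM), above CD8+ cells in both libraries. Mast or basophil-like cells stood at 92.6 and 103.8 CPM, from only 5 and 7 UMIs. CD103 is a known marker of a subset of dendritic cells. Fibroblast-like cells held 5 and 6 Itgae UMIs, macrophage-like cells 1 and 1, and cancer-like cells 1 and 2, so the transcript was near 0 there. When each cell was thinned to 1000 UMIs, 6.86% of sensitive and 4.65% of resistant CD8+ cells had an Itgae UMI. No fibroblast-like cell had one at that depth, of 820 and 593, which allows a share of cells with a UMI of up to 0.366% and 0.506%. At full depth an Itgae UMI was present in 15.9% and 12.6% of CD8+ cells, and in 0.601% and 0.842% of fibroblast-like cells (5 cells in each library).

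Among lymphocytes, Itga1 was shared by NK cells, CD8+ cells and γδ T cells, where the intervals of its ratio between the libraries included 1. CD8+ cells stood at 107.0 CPM when sensitive and at 101.1 CPM when resistant (697 and 931 UMIs), with a ratio of 1.06 (0.958 to 1.17). NK cells stood at 115.7 and 145.2 CPM and γδ T cells at 70.0 and 90.9 CPM. CD4+ cells held only 9 and 3 UMIs. The neighbors NK, CD8+ and γδ overlapped in their intervals in both libraries, so no order among them can be read. Endothelial-like cells stood at 279.9 and 107.0 CPM, from 9 and 8 cells. Their sensitive interval (199.1 to 382.7) lay above that of NK cells, while the resistant ones overlapped.

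In fibroblast-like cells Itga1 had the highest ratio of the 8 members with enough UMIs. Sensitive fibroblast-like cells held 884 UMIs (65.6 CPM) and resistant ones 204 (19.5 CPM), for a ratio of 3.37 (2.89 to 3.94). By cluster, the ratio was 2.20 (1.68 to 2.93) in cluster 2, led by Reg1 with Apod and Cxcl12, and 2.15 (1.70 to 2.73) in cluster 12, which expressed the contractile genes Tagln and Acta2. It was 1.54 in cluster 4, led by Igfbp5 and with Pi16, where 26 and 25 UMIs left an interval that included 1 (0.854 to 2.78). Cluster 15, led by the matrix genes Cilp, Mgp and Fmod, held 146 sensitive and only 7 resistant cells and had the highest Itga1 level (162.2 CPM). Part of the class-wide ratio therefore goes with the numbers of cells in that cluster.

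Cd69 was high in all lymphocytes. It reached 1111 and 1065 CPM in γδ T cells, 527.9 and 486.5 CPM in CD4+ cells, 406.9 and 316.0 CPM in CD8+ cells, and 407.4 and 274.9 CPM in NK cells, each given as sensitive and then resistant. γδ T cells lay above CD8+ and NK cells in both libraries with no overlap of intervals. In CD8+ cells, from 2652 and 2911 UMIs, the ratio was 1.29 (1.22 to 1.36), and in NK cells it was 1.48 (1.14 to 1.94). The CD4+ ratio was 1.09 and the γδ ratio 1.04. Fibroblast-like and cancer-like cells were near 0, at 3.56 and 5.15 CPM and at 5.67 and 1.31 CPM.

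Scaled as CPM, Cdh1 transcripts were found in CD8+ cells at about the level of the cancer cells. E-cadherin is best known as the junction protein of epithelia, and 4T1 is an epithelial tumor. CD8+ cells held 323 and 437 Cdh1 UMIs (49.6 and 47.4 CPM), and cancer-like cells 142 and 180 (53.7 and 59.1 CPM). The median cancer-like cell had 20725 and 21272 UMIs of all genes, against 4035.5 and 4640 in CD8+ cells. On average a cancer-like cell therefore held more Cdh1 UMIs than a CD8+ cell. NK cells stood at 43.4 and 86.5 CPM, dendritic cell-like cells at 48.2 and 49.7 CPM, and γδ T cells at 35.0 and 39.0 CPM. Fibroblast-like cells were at 0.594 and 0.668 CPM, from 8 and 7 UMIs in 832 and 594 cells.

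Other epithelial transcripts were fewer than Cdh1 in CD8+ cells, with 76 and 134 UMIs of Krt8, Krt18 and Epcam together. For every 1000 UMIs of Krt8, Krt18 and Epcam together, CD8+ cells held 4250 and 3261 Cdh1 UMIs, while cancer-like cells held 9.94 and 11.6. The CD8+ ratio between libraries was 1.04 (0.902 to 1.21), and the cancer-like ratio was 0.908 (0.724 to 1.14). NK cells had the lower level in the sensitive library (ratio 0.502, 0.261 to 0.940, but 0.713 when gated over all cells with a Ptprc UMI), as did CD4+ cells with 11 and 9 UMIs (0.229, 0.0861 to 0.624). Macrophage-like cells had the higher level there, with 49 and 20 UMIs (ratio 2.27, 1.33 to 4.03, but 1.28 as a mean over cells). After thinning these 3 classes held under 20 Cdh1 UMIs.

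Ly6c1 and Ly6c2 were the members that differed most between sensitive and resistant CD8+ cells, and both were higher in the sensitive ones. Ly6c1 had 3460 UMIs in sensitive cells (530.9 CPM) and 1471 in resistant cells (159.7 CPM), for a ratio of 3.32 (3.13 to 3.54). For Ly6c2 the UMIs were 1965 (301.5 CPM) and 1142 (124.0 CPM), a ratio of 2.43 (2.26 to 2.62). Summed over both genes the ratio was 2.93 (2.80 to 3.08). After thinning to 1000 UMIs, 26.9% of sensitive and 12.4% of resistant CD8+ cells had a Ly6c1 UMI, and 19.4% and 10.2% had a Ly6c2 UMI. Without thinning these shares were 40.9% and 21.5% for Ly6c1, and 35.1% and 18.4% for Ly6c2. The levels and the shares thus went the same way for both genes.

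They were the only members past 1.5-fold in CD8+ cells, 2 of the 9 with at least 20 UMIs over both libraries, and both were higher in the sensitive library. Over all 10769 genes with that many UMIs, 13.7% were past 1.5-fold, 9.27% higher in the sensitive library and 4.43% lower. The median ratio was 1.27 over the 9 members and 1.10 over all genes. Fibroblast transcripts moved with this result. The 8 fibroblast markers summed to 71.8 CPM in sensitive and 25.4 CPM in resistant CD8+ cells, with 1 and 0 of them at 0. CD8+ cells held 11125 and 8970 Ly6c1 UMIs for every 1000 UMIs of Col1a1, Col1a2 and Col3a1, against 76.5 and 86.4 in fibroblast-like cells.

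**Figure D2:**
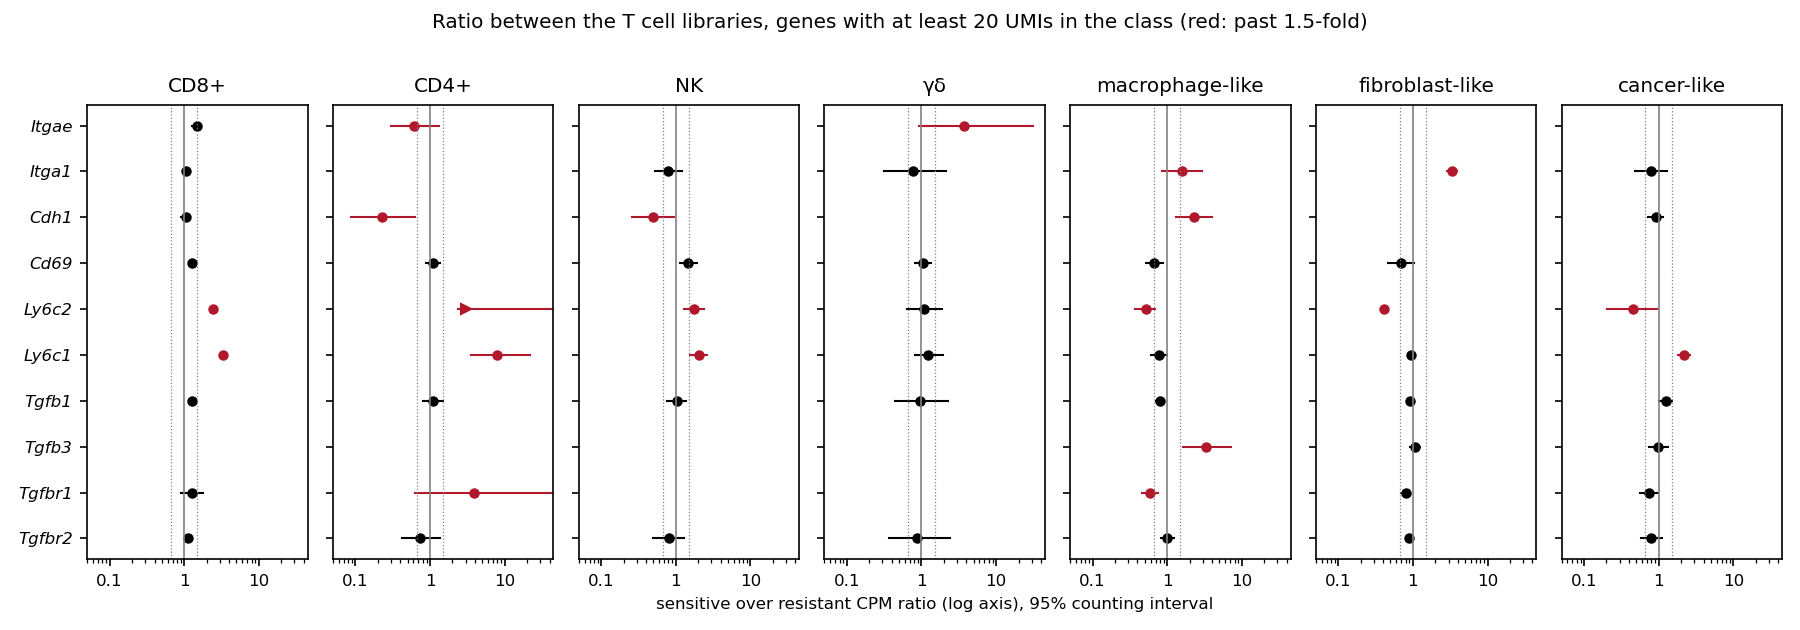
Sensitive over resistant CPM ratio (log axis) of each gene with at least 20 UMIs in a class, with exact 95% counting intervals, in 7 panels for the cell classes. Dotted lines mark 1.5-fold in either direction, and red points lie past it. The right-pointing triangle is Ly6c2 in CD4+ cells, with the 0 UMIs of the resistant library read as 3. The Ly6c genes lie to the right in CD8+, CD4+ and NK cells, while Ly6c2 lies to the left in the 3 non-lymphoid classes.

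NK cells showed the same direction for both Ly6c genes, with 525.6 and 259.5 CPM for Ly6c1 (ratio 2.03, 1.57 to 2.64) and 359.2 and 203.9 CPM for Ly6c2 (1.76, 1.31 to 2.39). The Ly6c2 ratio fell under the limit in 2 of 11 alternatives, to 1.38 after thinning and to 1.49 with a 20% mitochondrial limit. The summed ratio was 1.91 (1.58 to 2.32). The fibroblast markers were also higher in sensitive NK cells, at 163.9 and 24.7 CPM, with 1 and 4 of 8 at 0. For every 1000 collagen UMIs, counted as above, NK cells held 7032 and 14000 Ly6c1 UMIs, from 31 and 6 collagen UMIs. Sensitive CD4+ cells held 255 Ly6c1 UMIs and resistant ones 6 (241.7 and 30.4 CPM), for a ratio of 7.95 (3.60 to 21.9) and a summed ratio of 9.48 (4.30 to 26.0). Their Ly6c2 UMIs were 49 and 0, which is 3.05-fold higher with the 0 read as a floor of 3 UMIs. This value leaves out the counting error of the 49 UMIs. It fell to 1.83 with a 5% mitochondrial limit and to 1.02 when 2 UMIs of the lineage genes were asked of each CD4+ cell. Single cells weighed on both, since over both libraries the top cell held 22.6% of the Ly6c1 and 28.6% of the Ly6c2 UMIs of CD4+ cells. B cell or plasma cell markers moved with this result, at 3349 CPM in sensitive CD4+ cells (1 of 5 markers at 0) and at 0 in resistant ones (all 5 at 0). One sensitive CD4+ cell held 99.8% of the immunoglobulin UMIs of its class. Without it, an alternative chosen after seeing the data, the Ly6c1 ratio was 6.90 and the Ly6c2 value against the floor was 2.28. Mast cell markers stood at 152.6 and 10.1 CPM, with 3 of 4 at 0 in each library. Fibroblast markers stood at 72.0 and 40.5 CPM in CD4+ cells (2 and 5 of 8 at 0), and neutrophil markers at 2.84 and 152.0 CPM (5 and 4 of 7 at 0). For every 1000 collagen UMIs CD4+ cells held 4811 and 1200 Ly6c1 UMIs, from 53 and 5 collagen UMIs. The part of these transcripts was not tested. γδ T cells had 136 and 27 Ly6c1 UMIs and 83 and 19 Ly6c2 UMIs, with ratios of 1.23 and 1.07 and a summed ratio of 1.17 (0.846 to 1.64). Over 11 alternatives their Ly6c1 ratio ranged from 0.690 to 3.21, the highest without the top cell, an alternative chosen after seeing the data. Their Ly6c2 ratio ranged from 0.411, with a 5% mitochondrial limit, to 1.07, and was past 1.5-fold in 4 of 11.

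NK cells had 3 of 7 members past 1.5-fold against 30.8% of all 4534 genes, and CD4+ cells had 5 of 8 against 36.6% of 6067. γδ T cells had 1 of 7 against 40.5% of 2752. In these small classes so many genes passed the limit that the counts of members say little.

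Among the non-lymphoid cells Ly6c1 and Ly6c2 had different ratios. Fibroblast-like cells had by far the most Ly6c1, with 26203 sensitive and 21494 resistant UMIs (1945 and 2051 CPM, ratio 0.948, 0.931 to 0.966). Their Ly6c2 UMIs were 1312 and 2527 (97.4 and 241.2 CPM), so that the UMIs assigned to Ly6c2 were lower in the sensitive library (ratio 0.404, 0.377 to 0.432). Summed over both genes the fibroblast-like ratio was 0.891 (0.876 to 0.907). The Ly6c2 ratio was 0.478 in cluster 2, 0.558 in cluster 4 and 0.479 in cluster 12, while that of Ly6c1 was 1.14 in cluster 2 and 1.35 in cluster 4. Cluster 4 had the most of both genes, at 4489 and 3321 CPM of Ly6c1 and 217.9 and 390.8 CPM of Ly6c2. Endothelial-like cells came second for Ly6c1, at 983.4 and 805.4 CPM, from 9 and 8 cells. In macrophage-like cells, where Ly6C marks monocytes, Ly6c2 stood at 27.5 and 53.6 CPM (ratio 0.513, 0.375 to 0.695) and Ly6c1 at 51.7 and 66.6 CPM (0.776). Cancer-like cells had 117.9 and 54.2 CPM of Ly6c1 (2.18, 1.80 to 2.65) and 4.16 and 9.19 CPM of Ly6c2 (0.452, 0.203 to 0.937). The sums had ratios of 0.658 (0.545 to 0.794) in macrophage-like and 1.93 (1.61 to 2.32) in cancer-like cells. The Ly6c1 and Ly6c2 differences therefore pointed in opposite directions in cancer-like cells. Collagen transcripts in those cells stood at 12.5 and 84.0 CPM. Their part in either result was not tested.

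In fibroblast-like cells 2 of 8 members were past 1.5-fold (Itga1 higher, Ly6c2 lower), against 14.1% of 12711 genes, 9.38% higher and 4.7% lower. In macrophage-like cells it was 5 of 9 against 16.6% of 9129 genes, and in cancer-like cells 2 of 8 against 15.7% of 10065. The median ratio of the members was 0.908, 0.795 and 0.852 in these classes, and that of all genes was 1.06, 1.05 and 1.04.

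CD8+ cells were not uniform, and Itgae and the Ly6c genes were both high in clusters 1 and 9. The member genes were left out of the genes used for clustering. Cluster 1 held 34.3% of sensitive and 15.9% of resistant CD8+ cells but 59.2% and 47.7% of their Itgae UMIs, and 60.4% and 45.5% of their Ly6c1 UMIs. For Itga1 (44.8% of sensitive UMIs) and Cdh1 (52.3% and 23.3%) its part of the UMIs lay closer to its part of the cells. Its leading genes as clustered were immunoglobulin segments. These came from 1 resistant cell, which held 97.6% of the immunoglobulin UMIs of resistant CD8+ cells. Without that cell the leading genes among CD8+ cells included Itgb7, Cxcr3, Ly6a and Gzmk, and the resistant CD8+ levels of Itgae, Ly6c1 and Ly6c2 were 44.3, 158.6 and 123.2 CPM.

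Within cluster 1, Itgae was at 144.1 CPM among sensitive and 188.7 CPM among resistant cells (ratio 0.763), and Itga1 was at 178.4 and 180.9 CPM. Ly6c1 was still higher in the sensitive library (1195 and 650.8 CPM, ratio 1.84), while Ly6c2 was closer (688.3 and 534.1 CPM, ratio 1.29). Cluster 9, marked by interferon-induced genes such as Ifit1 and Ifit3, behaved otherwise. Its Itgae level was 166.8 CPM in sensitive cells against 56.3 CPM in resistant cells (ratio 2.96, 2.04 to 4.35), with ratios of 1.75 for Cdh1, 1.45 for Cd69, 2.76 for Ly6c2 and 3.38 for Ly6c1. Its Cd69 level, 833.8 and 575.1 CPM, was the highest of the clusters in both libraries, though its resistant interval overlapped that of cluster 11. In the proliferating cluster 6 the ratios were 2.73 for Ly6c2 and 3.49 for Ly6c1.

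The remaining CD8+ clusters were low in Itgae, except for the small cluster 14. Cluster 0, led by Gm156 and T cell receptor segments, held 18.2% of sensitive and 42.5% of resistant CD8+ cells. It had little Itgae (14.4 and 26.4 CPM) and little Ly6c1 (57.5 and 42.4 CPM). Cluster 3, with the granzymes Gzmf and Gzmg, perforin and Ifng, held 24.7% and 13.7%, with Itgae at 13.0 and 6.21 CPM. Cluster 11, with the naive cell genes Tcf7 and S1pr1, held 0 and 2 Itgae UMIs but had high Ly6c1 (1052 and 931 CPM). Cluster 14, with Foxp3, had Itgae at 130.5 and 152.9 CPM.

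With each of these clusters weighted equally, the CD8+ levels were 69.3 and 67.2 CPM for Itgae (ratio 1.03), 600 and 322 CPM for Ly6c1 (1.86), and 340 and 262 CPM for Ly6c2 (1.30). Within single clusters the Itgae ratio went both ways, at 0.545 in cluster 0 and 2.96 in cluster 9.

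**Figure D3:**
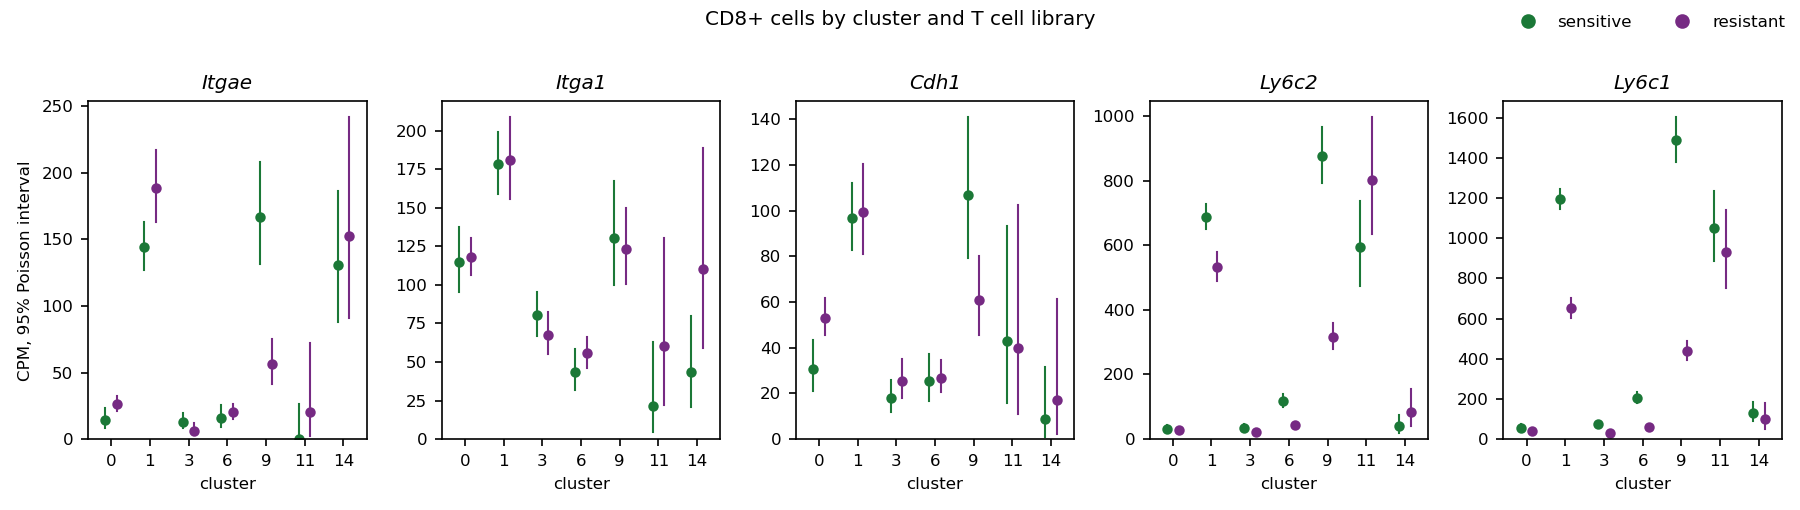
Level (CPM) of Itgae, Itga1, Cdh1, Ly6c2 and Ly6c1 in CD8+ cells of each cluster with at least 20 cells in both libraries, with exact Poisson 95% intervals, sensitive in green and resistant in purple. Itgae is high in clusters 1, 9 and 14, and the Ly6c genes in clusters 1, 9 and 11. In cluster 9 the sensitive library is above the resistant one for Itgae, Cdh1, Ly6c2 and Ly6c1.

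Single CD8+ cells showed the same association of genes. Of the cells thinned to 1000 UMIs, 90 sensitive and 73 resistant cells had an Itgae UMI. Itga1 was detected in 24.4% of these sensitive cells, against 10.6% of the 1222 cells without Itgae. The corresponding resistant shares were 19.2% and 9.15%, the latter of 1498 cells. Cdh1 was detected in 8.89% against 3.93% of sensitive and in 17.8% against 5.07% of resistant cells. The transcript of the ligand of CD103 was thus found more often in cells with Itgae, though the sensitive intervals overlapped. Ly6c2 followed the same pattern (40.0% against 17.9%, and 27.4% against 9.35%), as did Ly6c1 (40.0% against 25.9%, and 30.1% against 11.5%).

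Tgfb1 went the other way, at 6.67% against 12.7% of sensitive and 5.48% against 10.6% of resistant cells, with overlapping intervals. Cd69 shares were 37.8% against 29.9%, and 31.5% against 27.1%. On unthinned cells the Cd69 level was 1.38-fold (1.25 to 1.52) and 1.41-fold (1.28 to 1.55) higher in cells with an Itgae UMI. The Ly6c genes were found together: of cells with a Ly6c1 UMI, 55.0% and 55.9% also had Ly6c2, against 6.36% and 3.71% of cells without one.

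**Figure D4:**
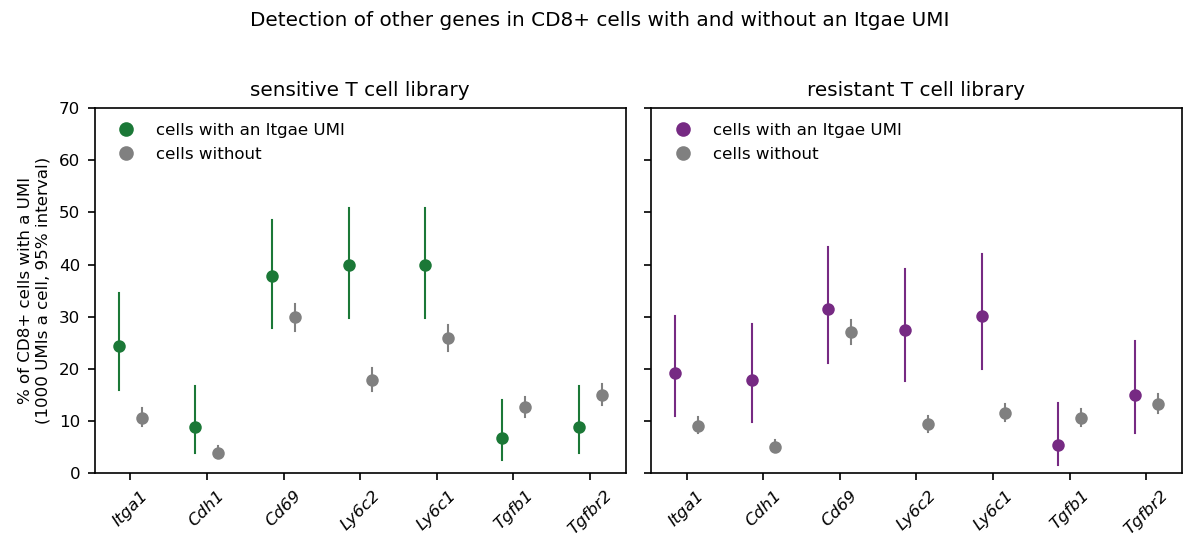
Percent of CD8+ cells, each thinned to 1000 UMIs, in which a second gene was detected, for cells with an Itgae UMI (colored) and without (gray), with exact binomial 95% intervals, in the sensitive (left) and resistant (right) T cell library. Itga1, Ly6c2 and Ly6c1 are detected more often in cells with Itgae in both libraries, and Tgfb1 less often.

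Genes listed for residency or circulation, outside the 10 members, were compared with the Itgae split on unthinned cells (210 with and 1112 without an Itgae UMI in the sensitive library, 198 and 1377 in the resistant). Itgb7, the β chain that pairs with αE, was higher in cells with Itgae by 2.59-fold in the sensitive and 4.02-fold in the resistant library. Eomes, a transcription factor of effector and memory cells, had 3 UMIs in sensitive cells with Itgae and 173 in those without, a level 0.0976 times as high (0.0199 to 0.290), and in resistant cells the level was 0.776 times as high (0.481 to 1.20). Il7r, which like Eomes is listed with the genes of circulation, was higher by 1.41 and 1.52-fold. Klrg1 of the same list was higher by 2.38 and 2.63-fold. Of the residency genes, Bhlhe40 was lower in cells with Itgae, at 0.866 and 0.746 times the level. Rgs2 was at 0.853 times (0.707 to 1.02) and 0.575 times. Neither list thus went 1 way. These genes were named after their values had been seen.

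Between the libraries, CD8+ cells had 4 of 16 eligible residency genes past 1.5-fold higher in the sensitive library and 1 lower. Of 12 genes of egress and circulation, 6 were higher and 0 lower. Over all genes, 9.27% were higher and 4.43% lower. The median ratios of the lists were 1.17 and 1.5, against 1.10 over all genes. Itgb7 stood at 152.8 and 54.5 CPM (2.80, 2.52 to 3.13). The inhibitory receptor Klrg1, which binds E-cadherin, stood at 9.82 and 3.58 CPM (2.74) and S1pr1 at 5.98 and 2.50 CPM (2.40). The carbonic anhydrase Car2 was the lower one, at 43.6 and 83.2 CPM (0.524, 0.456 to 0.601).

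The ligand Tgfb1 was found in every class. It stood at 157.1 and 123.9 CPM in CD8+ cells (1024 and 1141 UMIs, ratio 1.27, 1.16 to 1.38), at 264.4 and 243.2 CPM in CD4+ cells, and at 270.0 and 262.6 CPM in NK cells. Macrophage-like cells were at 198.7 and 250.0 CPM (492 and 574 UMIs, ratio 0.795, 0.703 to 0.898). Cancer-like cells stood at 81.6 and 65.3 CPM (ratio 1.25, 1.03 to 1.52), and fibroblast-like cells were lowest at 54.4 and 59.2 CPM (0.920, 0.825 to 1.03). None of these 6 classes passed 1.5-fold for Tgfb1, though the NK ratio of 1.03 became 1.57 after thinning to 1000 UMIs. Mast or basophil-like cells did, with 5 and 17 UMIs from 19 and 10 cells (ratio 0.367), but the interval included 1 (0.106 to 1.04). Among these 6 classes, CD8+, CD4+, NK and macrophage-like cells stood above cancer-like and fibroblast-like cells in both libraries. γδ T cells, at 111.4 and 116.9 CPM, overlapped cancer-like cells in their intervals in both libraries. Endothelial-like cells stood at 272.8 and 226.5 CPM, from 9 and 8 cells. Among CD8+ cells, the cytotoxic cluster 3 had the highest sensitive level at 232.8 CPM, against 147.0 CPM in the resistant library (ratio 1.58), though its interval overlapped those of clusters 6 and 14.

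Tgfb3 had a different source. It was found in cancer-like cells (94 and 109 UMIs, 35.5 and 35.8 CPM, ratio 0.993) and in fibroblast-like cells (414 and 304 UMIs, 30.7 and 29.0 CPM, ratio 1.06, 0.911 to 1.23). All CD8+ cells together held 7 and 6 Tgfb3 UMIs. Macrophage-like cells held 39 and 11 UMIs (15.7 and 4.79 CPM), a ratio of 3.29 (1.65 to 7.12), which was 3.07 in their main cluster 5.

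The fibroblast clusters differed more from each other than the libraries did. The contractile cluster 12 had the most Tgfb1 (123.3 and 160.2 CPM), against 46.0 CPM in the sensitive cells of the matrix cluster 15. Tgfb3 was highest in clusters 12 (41.1 and 71.4 CPM) and 15 (71.5 CPM). Within cluster 12 both ligands were lower in the sensitive library, with ratios of 0.769 and 0.575. Over all fibroblast-like cells the Tgfb3 ratio was 1.06. It ranged from 0.682 with clusters weighted equally to 5.06 after thinning to 1000 UMIs. The part that the lower level in cluster 12 and the larger cluster 15 of the sensitive library had in it was not tested.

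**Figure D5:**
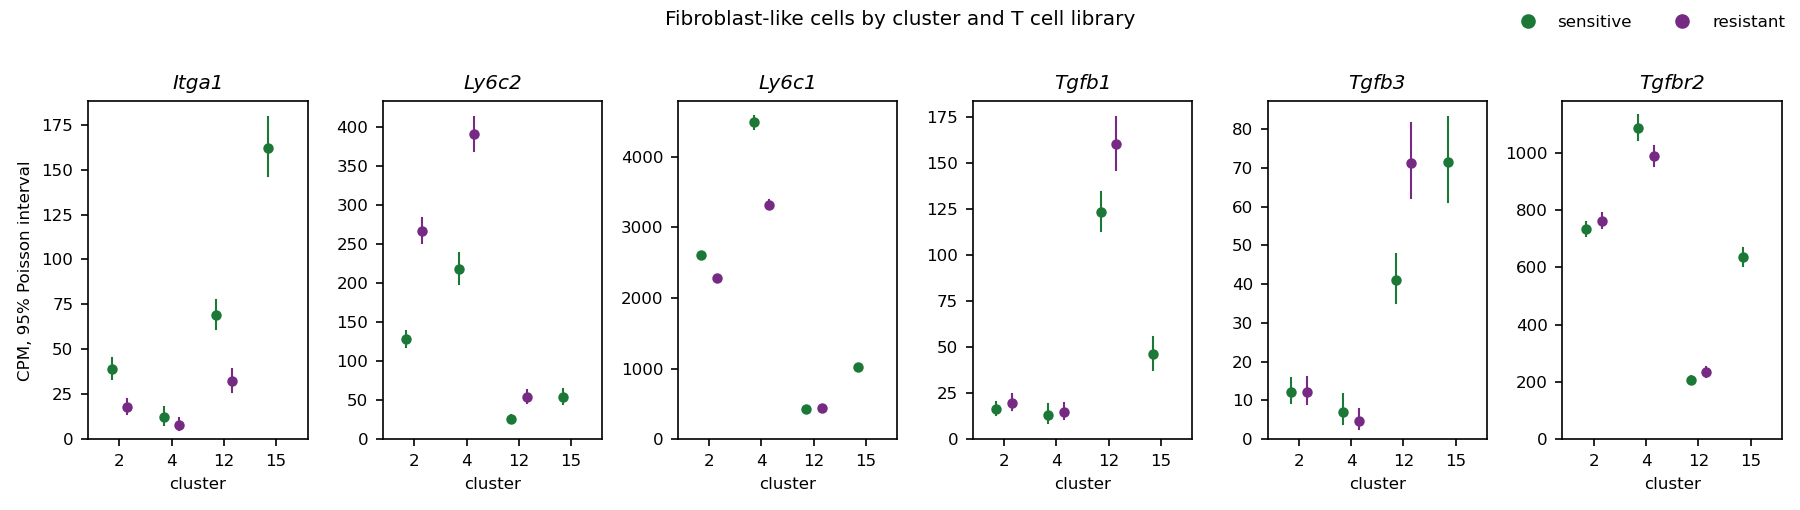
Level (CPM) of Itga1, Ly6c2, Ly6c1, Tgfb1, Tgfb3 and Tgfbr2 in the 4 fibroblast-like clusters with exact Poisson 95% intervals, sensitive in green and resistant in purple. Cluster 15 has no resistant point because it held 7 resistant cells. Itga1 is above and Ly6c2 below the resistant level in the sensitive cells of clusters 2, 4 and 12, and Tgfb1 and Tgfb3 are highest in clusters 12 and 15.

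Of the receptors, Tgfbr2 was a fibroblast gene. Fibroblast-like cells held 8173 and 7087 UMIs (606.7 and 676.4 CPM, ratio 0.897, 0.869 to 0.926). Endothelial-like cells were second in the sensitive library, at 308.6 and 138.4 CPM from 43 and 22 UMIs. CD8+ cells stood at 139.3 and 125.0 CPM (908 and 1151 UMIs, 1.12, 1.02 to 1.22), NK cells at 91.6 and 114.3 CPM and macrophage-like cells with 79.2 and 78.4 CPM. Cancer-like cells were low, at 25.3 and 31.8 CPM. Among fibroblasts, cluster 4 had the highest level (1088 and 990 CPM) and the contractile cluster 12 the lowest (205.0 and 234.9 CPM). The cluster with the most Tgfb1 was thus the one with the least Tgfbr2.

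Tgfbr1, the signaling receptor, had its highest resistant level in macrophage-like cells, where it was lower in the sensitive library (103 and 163 UMIs, 41.6 and 71.0 CPM, ratio 0.586, 0.453 to 0.754). It stood at 36.1 and 45.1 CPM in fibroblast-like cells (0.799, 0.703 to 0.909) and at 31.7 and 42.7 CPM in cancer-like cells (0.744, 0.559 to 0.987). CD8+ cells held 67 and 75 UMIs (10.3 and 8.14 CPM, ratio 1.26, 0.894 to 1.78). That ratio ranged from 0.958 to 2.21 over 13 alternatives, the highest after thinning, and was past 1.5-fold in 2 of them. In the sensitive library Foxp3+ CD4+ cells (81.6 CPM, 8 UMIs) and mast or basophil-like cells (74.1 CPM, 4 UMIs) stood above them, and the intervals of all 5 classes overlapped. Nearly all macrophage-like cells lay in cluster 5 (199 and 194 cells, led by Lyz2, Mmp12 and complement genes), where the ratio of Tgfbr1 was 0.655, that of Ly6c2 0.584 and that of Cdh1 2.06. The smaller cluster 19, with Cd163, Mrc1 and Folr2, held 24 sensitive cells and 1 resistant cell.

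Other genes of the pathway were counted in the same way in fibroblast-like cells. There, where 14.1% of all genes passed 1.5-fold, 0 of 3 co-receptors and 0 of 12 signal transducers passed 1.5-fold. Of 10 genes for ligand, latency and activation, 1 was higher and 1 lower. Lrrc32, which tethers latent TGF-β at the surface, was at 45.4 and 88.1 CPM (0.516, 0.465 to 0.572). Of 6 targets 1 passed, the secreted matrix protein Tgfbi, at 60.8 and 10.3 CPM (5.90, 4.82 to 7.28). In macrophage-like cells Thbs1, an activator of latent TGF-β, stood at 184.6 and 53.6 CPM (3.45, 2.82 to 4.24). These 3 genes were named after their values had been seen. Of the targets, 2 of 3 were higher in macrophage-like cells, against 16.6% of all genes past 1.5-fold either way. The fibroblast markers stood at 36.7 and 15.2 CPM there, and their part was not tested. In cancer-like cells 2 of 6 targets were higher and 3 lower, against 15.7% of all genes. In CD4+ cells 1 of 9 transducers was higher and 4 were lower, against 36.6%. In CD8+ cells 1 of 11 transducers and 3 of 3 targets were higher, against 9.27% of all genes higher. The stromal targets there included Col1a1 at 16.6 and 6.19 CPM, beside the fibroblast markers given above, whose part was not tested.

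The genes whose levels most resembled each member over 20 points (10 classes in each library, log2(CPM + 10)) are given as a description, since the points share libraries and depth. For Itgae these were Ap1s3, Tnp2 and Phf11a, with Pearson's r of 0.921, 0.894 and 0.877. For Cd69 they were Rinl, Arhgap45 and Dock2 (0.967, 0.964 and 0.963), and for Itga1 Emid1, Oip5os1 and Elk4 (0.874, 0.873 and 0.827). For Cdh1 they were Ncaph, Rps9 and Rfc4 (0.876, 0.865 and 0.861). Ly6c1 was most like Itm2a, Pgm3 and C1qtnf6 (0.876, 0.857 and 0.850), and Ly6c2 like Ccdc25, Setbp1 and Ugcg (0.784, 0.764 and 0.758). Tgfb3 was most like Sdsl, Pdgfrl and the matrix gene Mgp (0.961, 0.944 and 0.934), and Tgfb1 like Tnfrsf9, Ripk2 and Scly (0.814, 0.797 and 0.782). Tgfbr1 was most like Slc49a4, P4hb and Ifi202b (0.846, 0.801 and 0.794). Tgfbr2 was most like C1qtnf6, Slc43a3 and Cnrip1 (0.897, 0.886 and 0.885).

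The 3 whole-tumor libraries were too small to compare groups, and their values are given by library only. They were labelled control (saline), sensitive and resistant, and kept 488, 269 and 263 cells. The source fields of the control and resistant libraries named a sensitive tumor, so the libraries are called by their titles. T cell-like cells were most frequent in the library titled control (90 of 488 cells, against 6 of 269 and 12 of 263). The study instead reported a larger share of T cells in sensitive tumors than in saline controls and resistant tumors. Whether titles were exchanged was not tested. Cancer-like cells of the control and resistant libraries held 47 and 97 Cdh1 UMIs (79.6 and 110.3 CPM) and 18 and 27 Tgfb3 UMIs. Macrophage-like cells held 51, 24 and 75 Tgfb1 UMIs in the control, sensitive and resistant libraries. T cell-like cells held 4 Itgae UMIs in the control library and 0 in the others. In the same order they held 5, 0 and 46 Ly6c2 UMIs and 22, 0 and 23 Ly6c1 UMIs. Ly6c2 stood at 925.4 CPM (677.5 to 1234) in the resistant and at 0 (up to 432.4) in the sensitive whole-tumor library, intervals that did not overlap. In the library titled control Ly6c2 stood at 35.5 CPM (11.5 to 82.9). By title, the order of the resistant and sensitive libraries was opposite to that of CD8+ cells in the T cell libraries. That order rests on 12 and 6 cells without a CD8 gate, counted with another Cell Ranger version and feature list, and the titles are in doubt. No conclusion can be drawn from it. The Ly6c1 intervals (293.3 to 694.3 CPM and up to 432.4) overlapped. Fibroblast-like cells (17, 5 and 18 cells) again held Ly6c1, with 113, 1 and 129 UMIs.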

How the data were processed

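Single cells of 4T1 tumors were captured with 10x Genomics 3′ chemistry. The authors aligned reads to mm10 and deposited UMI counts per gene and barcode without normalization, with Cell Ranger 6.0.0 (T cell libraries) or 3.0.1 (whole-tumor libraries, 54987 features), so both sets were kept apart. Groups came from library titles. Barcodes needed 500 detected genes and no more than 10% mitochondrial UMIs in the T cell libraries, and 200 genes in the whole-tumor libraries. The cells with the highest Scrublet scores, 0.8% per 1000 barcodes, were removed as putative doublets (112 sensitive and 159 resistant), and none from whole-tumor libraries.

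Cells were clustered with scanpy 1.11.5 and leidenalg 0.10.2 (2000 variable genes without the members, 30 components, 15 neighbors, resolution 1). A cluster was named when at least 3 markers of a type were in at least 10% of its cells and raised by at least 1 log2 unit. The type with most markers among the 10 leading genes was taken, ties going to the higher mean marker level, and clusters rebuilt in this way may differ from those of the study. CD8+ cells had a Cd3 and a Cd8a or Cd8b1 UMI and no Cd4 UMI, CD4+ cells the converse, γδ T cells a Cd3 and a Trdc UMI without Cd4 or Cd8, and NK cells an Ncr1 or Klrb1c UMI without Cd3.

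UMIs were summed per class and library. CPM have exact Poisson intervals, ratios exact conditional binomial intervals and shares Clopper-Pearson intervals (scipy 1.17.1). A gene counted as past 1.5-fold with at least 20 UMIs over both libraries. Shares were compared after thinning each cell to 1000 UMIs, which left out 10 sensitive and 4 resistant CD8+ cells. Besides the members, the up to 5 highest and 5 lowest ratios of listed pathway genes with at least 50 UMIs in CD8+ cells and past 1.5-fold were named, and the 3 genes most alike to each member with at least 100 UMIs. Genes withheld here were left out of the named ones and are not reported. On simulated CD8+ counts, 96% of genes with a true 2-fold difference and 2.67% of unchanged genes were called, and on simulated NK counts 92% and 9.06%. The simulated counts held counting error only. They covered genes with at least 20 expected UMIs in the resistant library alone (10008 and 2286 genes). These shares are therefore not the error of the calls made here, which also took genes with fewer UMIs and lacked replicate libraries. The members and lists were chosen with earlier results of these data known. Gene positions and coding sequences came from the reference annotation of GRCm38.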

Additional observations from a re-analysis of the deposited data

Results flagged for a closer look

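Some members differed between sensitive and resistant tumors in opposite directions in different cell classes. These differences between classes were not tested, since each group had 1 library. The sensitive over resistant CPM ratio of Ly6c2 was 2.43 in CD8+ cells (1.30 with clusters weighted equally) and 1.76 in NK cells (1.38 after thinning to 1000 UMIs). In CD4+ cells it was 3.05 with 0 resistant UMIs read as a floor of 3, and 1.02 when 2 UMIs of the lineage genes were asked. It was 0.404 in fibroblast-like, 0.513 in macrophage or monocyte-like and 0.452 in cancer-like cells. Reads can be shared between Ly6c2 and Ly6c1, and with both genes summed the last 3 ratios were 0.891, 0.658 and 1.93, so the cancer-like direction turned. For Cdh1 the ratio was 2.27 in macrophage or monocyte-like cells (1.28 as a mean over cells), but 0.502 in NK cells (0.713 with a Ptprc gate) and 0.229 in CD4+ cells.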

How the results depend on the processing

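No paired analysis was possible because each group had 1 library. Of 81 alternative counts of members past 1.5-fold, 68 stayed within 1.5 times the count reported. Of 569 alternative ratios 523 kept their side of 1.5-fold, 70 moved by more than counting error and 3 reversed. In CD8+ cells the count stayed at 2 or 3. The Ly6c1 ratio ranged from 1.86 to 3.45 and was past 1.5-fold under 13 of 13 alternatives. That of Ly6c2 ranged from 1.30 to 2.62 (12 of 13), the lowest with equal cluster weights, an alternative chosen after seeing the data. The Itgae ratio ranged from 1.03 to 1.57. In fibroblast-like cells the Itga1 ratio ranged from 2.08 to 3.38 (10 of 10) and in macrophage-like cells that of Tgfb3 from 2.46 to 3.84 (8 of 8).

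Counts moved as follows. CD4+ cells (5) had 3 with a 5% mitochondrial limit, 1 after thinning and 2 when 2 UMIs of the lineage genes were asked. NK cells (3) had 1 at 2-fold. γδ T cells (1) had 2 as a mean over cells, 4 with the 5% limit, 3 with 2 lineage UMIs, 3 with a Ptprc gate and 2 without the top cell of each member (chosen after seeing the data). Fibroblast-like cells (2) had 4 without doublet removal and 4 after thinning. Macrophage-like cells (5) had 2 after thinning and 2 at 2-fold. The Itgae ratio in CD4+ cells (0.612) reversed to 4.03 with the 5% limit and to 1.18 with 2 lineage UMIs, and that of Tgfbr1 (3.93) to 0.945 with the Ptprc gate. The cause was not tested. Under these alternatives 23 ratios had under 20 UMIs and 1 class, cancer-like cells after thinning, had no member with enough UMIs, so they gave no value. Of 40 shares at another thinning depth 37 moved, as detection follows depth. Depth limits Tgfb3 and Tgfbr1 in lymphocytes and all genes in γδ T cells and Foxp3+ cells.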
